A study of Mus musculus with 18 samples.

Results

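The genes described here are 10 switch genes of the epithelial to mesenchymal transition, taken by name from the 18193 genes that a mouse expression array measured in lung tumour cell lines. They are Cdh1, Epcam and Grhl2 on the epithelial side, Cdh2 and Vim on the mesenchymal side, and the transcription factors Zeb1, Zeb2, Snai1, Snai2 and Twist1. For each gene the probe set with the largest average signal on the 18 arrays was used. All 10 had a probe set, and 9 of them lay above the level under which genes were left out of the tests. Cdh1 lay below it, with a mean of 5.04 against a filter level of 6.53 on the log2 scale, and was read from a fit without that filter.

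The study compared side population (SP) cells, which keep little of the DNA dye Hoechst, with the remaining non-SP cells of 3 lines, A2C12, betaD5 and cRAF_cMYC. All 3 lines came from lung tumours of mice that carried both a c-myc and a c-raf transgene and were 8 months old, and all grew in the same medium with 10% fetal calf serum. No line from mice without the transgenes was measured, and the promoter that drove them is not given in the sources used here. Each line and fraction had 3 arrays, numbered 1 to 3. Nothing says whether these numbers stand for separate cultures or sorts, so every p-value measures only the spread between these arrays, which may be technical.

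In the epithelial to mesenchymal transition, cells give up the cell contacts of an epithelium and take on the form and movement of mesenchymal cells. E-cadherin, the product of Cdh1, joins neighbouring epithelial cells, and its replacement by N-cadherin, the product of Cdh2, is a classical sign of the switch. The ZEB, SNAI and TWIST factors repress epithelial genes such as Cdh1, and GRHL2 acts against ZEB1 and maintains epithelial genes. In lung tumours the transition is known for its links to invasion and drug resistance.

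ZEB and SNAI proteins bind the letters CACCTG, read as CAGGTG on the other strand. These letters were searched for, on both strands, in the 250 bases before each gene's start in the RefSeq promoter table (GRCm38.p6). Windows of 5 members were searched, those of Epcam, Vim, Zeb2 with 4 start sites, Snai1 and Twist1. Cdh1, Snai2 and Grhl2 have no entry, and Cdh2 and Zeb1 were not used here. The windows of Epcam and Snai1 held the letters, and 17.2% of all 32851 windows of this length did so. Both windows are shown because they are the members' upstream sequences in which the letters occur. They lie on the plus strand at chr17:87635729-87635978 for Epcam and chr2:167537945-167538194 for Snai1, upstream of the first exon, with the matches in capitals.
Epcam: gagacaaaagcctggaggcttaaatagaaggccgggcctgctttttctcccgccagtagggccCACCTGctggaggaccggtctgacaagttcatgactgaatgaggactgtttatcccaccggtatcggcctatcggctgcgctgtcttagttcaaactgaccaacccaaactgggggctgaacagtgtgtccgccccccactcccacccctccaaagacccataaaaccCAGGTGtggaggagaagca
Snai1: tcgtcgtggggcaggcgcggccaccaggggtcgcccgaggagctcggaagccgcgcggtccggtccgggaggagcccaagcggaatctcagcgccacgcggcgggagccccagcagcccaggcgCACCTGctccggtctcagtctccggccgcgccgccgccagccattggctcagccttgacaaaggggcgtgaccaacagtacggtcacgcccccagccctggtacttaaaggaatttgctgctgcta
Counted back from the start, the matches began at positions -187 and -19 in Epcam and at -126 in Snai1. No match was present in the windows of Vim, Zeb2 and Twist1. A match describes these letters and is not a measured binding site.

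Some arrays departed from their labels or from the general level. Array medians lay between 5.80 and 6.06 in A2C12 and in the pair cRAF_cMYC 1, and between 6.32 and 6.72 elsewhere, so most genes read lower in A2C12 as deposited. Line differences are therefore given as deposited and also with each array centred on its median. The pairs labelled betaD5 1 and cRAF_cMYC 3 resembled arrays of the other of these lines more than their own. Across tested genes their arrays correlated at most at 0.925 and 0.930 with their own line and at up to 0.983 and 0.988 with the other, and results that rest on them are also given without them. The cells' markers were mixed. Of the lung markers, 3 of 7 alveolar type II genes, 0 of 3 club cell genes and 1 of 3 ciliated cell genes passed the filter, with Sftpc, a surfactant gene, between 5.13 and 6.60 and Scgb1a1, the club cell secretoglobin, between 3.84 and 5.73 on all arrays. The epithelial keratin gene Krt19 read 9.58 to 12.42. By their mean over all arrays, all 4 mesothelium markers and 6 of 7 fibroblast markers passed. The collagen gene Col1a2 read 12.15 to 14.76. On A2C12 arrays, though, the mesothelium markers Upk3b and Lrrn4 read at most 4.61 and 4.30, below the filter level of 6.53. The others, Wt1 and Msln, read 4.81 to 6.60 and 6.83 to 7.50 there. Of the fibroblast markers that passed, only Thy1 lay below that level on all A2C12 arrays, at most 5.71. Of 5 leukocyte markers 4 passed, led by the macrophage receptor gene Csf1r at 7.23 to 11.01, while Ptprc, the common leukocyte antigen, read at most 4.72. Of 5 endothelium markers Kdr passed, at 6.39 to 7.72, and Pecam1 read at most 5.61.

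The lines differed most clearly in Cdh1, Zeb1 and Cdh2. Against the mean of betaD5 and cRAF_cMYC, A2C12 had a higher Cdh1 signal by 2.00 in non-SP cells and 1.74 in SP cells on the log2 scale. Its Zeb1 signal was 4.32-fold and 4.21-fold lower and its Cdh2 signal 2.46-fold and 2.78-fold lower. These differences passed limma's test as deposited, with centred arrays and after quantile normalization. Same-numbered SP and non-SP arrays varied together, so the results of the fractions are not independent of each other. Epcam, an epithelial adhesion gene, was not raised with Cdh1 on its main probe set. The SP and non-SP fractions did not differ by an amount that passed the test in any of the 10 genes.

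**Figure D1:**
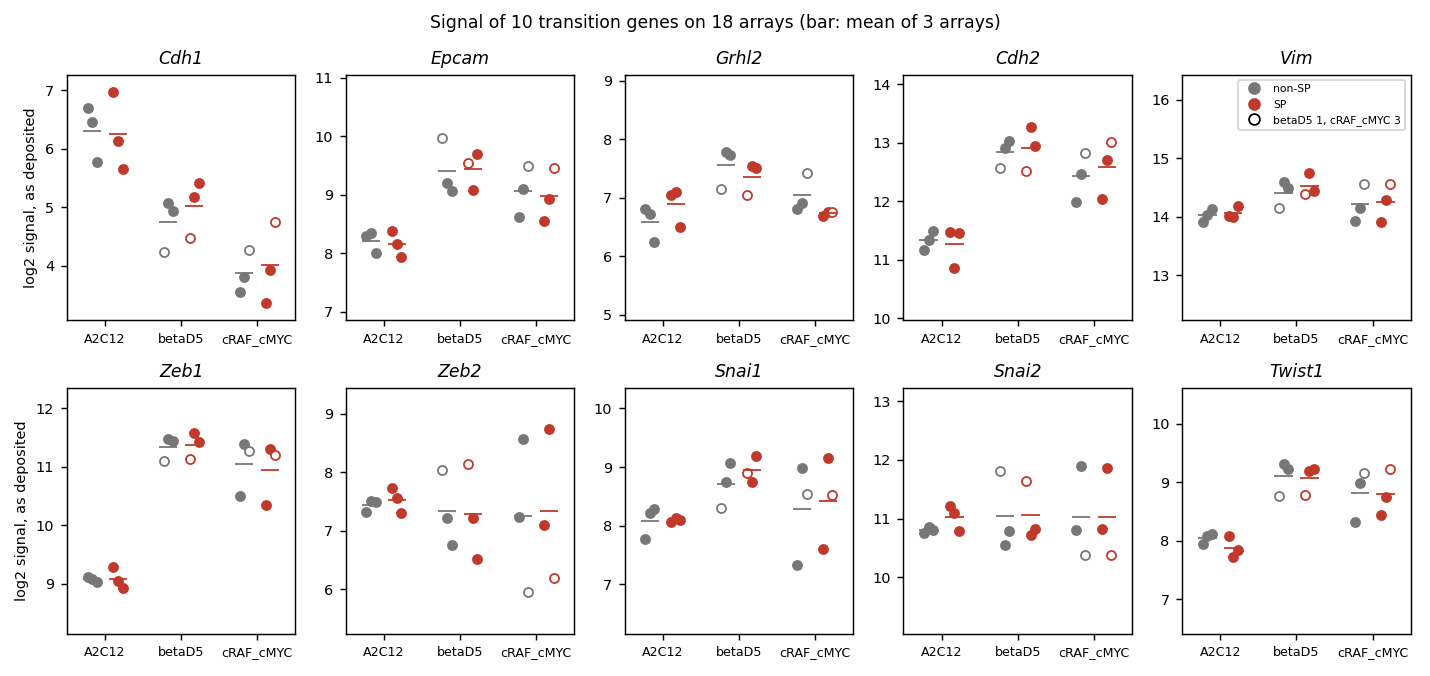
The log2 signal as deposited of each of the 10 genes on 18 arrays, by line on the horizontal axis, with non-SP arrays in grey, SP arrays in red, open circles for the pairs betaD5 1 and cRAF_cMYC 3, and a bar at the mean of 3 arrays. Every panel spans an equally wide range of signal, and A2C12 lies apart from all other arrays in the panels of Cdh1, Epcam, Cdh2, Zeb1 and Twist1. Of all tested genes, all A2C12 arrays lay below the rest in 28.1% and above in 1.77%.

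Cdh1 encodes E-cadherin and is represented by 1 probe set. A2C12 arrays 1, 2 and 3 read 6.69, 6.46 and 5.78 in non-SP cells and 6.97, 6.14 and 5.65 in SP cells. The betaD5 arrays read 4.24, 5.08 and 4.94 in non-SP cells and 4.47, 5.18 and 5.42 in SP cells. In cRAF_cMYC the same arrays read 3.55, 3.81 and 4.26 in non-SP cells and 3.37, 3.93 and 4.74 in SP cells. All 6 A2C12 arrays were above all 12 others, the lowest at 5.65 and the highest of the others at 5.42, and the ranges of betaD5 and cRAF_cMYC overlapped. As deposited, 1.77% of the 10916 tested genes had all A2C12 arrays above the rest, and 1.20% of the 7277 genes below the filter did. The difference of A2C12 from the mean of the other lines was 2.00 (SE 0.34) in non-SP cells and 1.74 (SE 0.34) in SP cells on the log2 scale, with limma adjusted p-values of 0.000296 and 0.000815 over 18193 genes. In that fit without a filter, 51.5% and 46.0% of all genes were called in non-SP and in SP cells, but 2.47% and 2.34% were called higher in A2C12. With centred arrays Cdh1 was higher by 2.53 and 2.23 (adjusted p = 2.05e-05 and 6.39e-05), where 8.49% and 7.89% of genes were called higher. Subtraction of the array median left all A2C12 arrays above the rest, -0.15 to 1.02 against -2.72 to -1.23, as it did for 7.21% of tested genes. Relative to the median gene of the fit the differences were 2.57 and 2.26, and 99.4% and 99.2% of the genes had a lower difference. Without the pairs betaD5 1 and cRAF_cMYC 3 they were 1.97 and 1.78, with adjusted p-values of 0.000105 and 0.000231. The order of the lines was A2C12, betaD5, cRAF_cMYC, and cRAF_cMYC minus betaD5 was -0.88 in non-SP cells (95% interval -1.71 to -0.06, adjusted p = 0.43). That last difference was -1.33 without both pairs, where it passed the test (adjusted p = 0.032, 13.5% of genes called), and -0.93 when the arrays were also centred (adjusted p = 0.082). Cdh1 lay low on this array, above only 17.5% of genes by mean, and how much of the signal in betaD5 and cRAF_cMYC, 3.37 to 5.42, is background was not tested, so no fold is given.

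Epcam encodes an adhesion protein of epithelial cells. Its A2C12 arrays read 8.30, 8.34 and 8.0 in non-SP cells and 8.38, 8.16 and 7.94 in SP cells. The betaD5 arrays read 9.98, 9.20 and 9.07 in non-SP cells and 9.55, 9.09 and 9.70 in SP cells, and the cRAF_cMYC arrays read 8.62, 9.10 and 9.50 and then 8.55, 8.93 and 9.47. As deposited, all 6 A2C12 arrays lay below the other 12, as they did for 28.1% of tested genes, but after subtraction of the array median the ranges overlapped, 2.11 to 2.42 in A2C12 and 2.35 to 3.47 elsewhere. The difference as deposited was -1.03 (SE 0.26) in non-SP cells and -1.05 (SE 0.26) in SP cells, with limma adjusted p-values of 0.0040 and 0.0032. With centred arrays it was -0.49 and -0.56 and did not pass (adjusted p = 0.14 and 0.085). The other Epcam probe set read 4.29 to 5.82, with a mean of 5.03, below the filter level of 6.53. It gave -0.59 and -0.42 as deposited, which is -0.01 and 0.17 relative to the median gene. The probe sets thus disagreed on the level of Epcam, and the calls given are those of the main one. Neither scaling put the main Epcam probe set higher in A2C12, the direction of Cdh1. Without the pairs betaD5 1 and cRAF_cMYC 3 the differences as deposited were -0.78 and -0.91 and still passed (adjusted p = 0.011 and 0.0043).

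Grhl2, the third epithelial gene, lay close to the filter. The A2C12 arrays read 6.81, 6.72 and 6.24 in non-SP cells and 7.06, 7.10 and 6.51 in SP cells. The betaD5 arrays read 7.15, 7.78 and 7.74 and then 7.04, 7.54 and 7.52, and the cRAF_cMYC arrays 6.81, 6.92 and 7.43 and then 6.70, 6.76 and 6.77. A2C12 and cRAF_cMYC overlapped, and betaD5 was the highest in mean. A2C12 minus the others was -0.71 (SE 0.22, limma adjusted p = 0.013) in non-SP cells and -0.16 (adjusted p = 0.54) in SP cells. The non-SP difference rested on the pair A2C12 3, without which it was -0.54 (adjusted p = 0.092). With centred arrays these were -0.17 and 0.33, with adjusted p-values of 0.50 and 0.18, so the sign in SP cells depended on the scaling. Without the pairs betaD5 1 and cRAF_cMYC 3, Grhl2 was lower in cRAF_cMYC than in betaD5 by -0.90 (adjusted p = 0.048, with 11.2% of all genes called), against -0.50 (adjusted p = 0.59) with them. It was -0.49 when the arrays were also centred and did not pass (adjusted p = 0.15).

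Cdh2 encodes N-cadherin, the cadherin of mesenchymal and neural cells. Its A2C12 arrays read 11.16, 11.34 and 11.50 in non-SP cells and 11.48, 10.87 and 11.46 in SP cells. In betaD5 the arrays read 12.56, 12.91 and 13.04 and then 12.51, 13.26 and 12.95, and in cRAF_cMYC 11.99, 12.47 and 12.83 and then 12.03, 12.70 and 13.01. All A2C12 arrays lay below all others as deposited and after subtraction of the array median, as 28.1% and 12.4% of tested genes did. The difference was -1.30 (SE 0.24), or 2.46-fold lower, in non-SP cells and -1.47 (SE 0.24), or 2.78-fold lower, in SP cells, with limma adjusted p-values of 0.000425 and 0.000138. With centred arrays it was -0.76 (adjusted p = 0.014) and -0.98 (adjusted p = 0.0024). Without both doubtful pairs it was -1.27 and -1.47 (adjusted p = 0.00027 and 6.4e-05). The other Cdh2 probe set gave -1.04 and -1.15 as deposited. The order was betaD5, cRAF_cMYC, A2C12, and betaD5 and cRAF_cMYC overlapped, with a difference of -0.41 for cRAF_cMYC minus betaD5 (95% interval -0.99 to 0.18, adjusted p = 0.59).

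Vim encodes vimentin, the intermediate filament protein of mesenchymal cells. It read 13.91 to 14.19 in A2C12, 14.15 to 14.75 in betaD5 and 13.92 to 14.56 in cRAF_cMYC, near the highest value of the files, 15.28. The ranges overlapped. A2C12 minus the others was -0.29 (limma adjusted p = 0.14) in non-SP cells and -0.32 (adjusted p = 0.097) in SP cells as deposited, and 0.25 and 0.17 with centred arrays, so its sign depended on the scaling. Without the pair cRAF_cMYC 1, whose arrays had low medians, it was -0.36 and -0.41 as deposited and passed (adjusted p = 0.026 and 0.014), where 66.3% and 66.8% of all genes were called. The other Vim probe sets gave -0.36 and -0.42 in non-SP cells and -0.46 and -0.56 in SP cells. Relative to the median gene these were 0.23, 0.16, 0.14 and 0.04. With the mean of all probe sets, Vim passed in SP cells at -0.45 (limma adjusted p = 0.032). So did betaD5 minus A2C12 in non-SP cells, at 0.49 (adjusted p = 0.039). Without both doubtful pairs the latter was 0.52 on the main probe set (adjusted p = 0.023). Vim was high on every array of all 3 lines, A2C12 included.

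Zeb1, the repressor of Cdh1 most often tied to the switch, had the largest difference between lines among the tested members. Its A2C12 arrays read 9.12, 9.09 and 9.04 in non-SP cells and 9.30, 9.05 and 8.93 in SP cells. In betaD5 the arrays read 11.10, 11.47 and 11.44 and then 11.13, 11.58 and 11.42, and in cRAF_cMYC 10.50, 11.39 and 11.28 and then 10.35, 11.31 and 11.20. All A2C12 arrays lay more than 1 log2 unit below the lowest of the others, which was an SP array of the pair cRAF_cMYC 1 with a low array median. By any margin, all A2C12 arrays lay below the rest for 28.1% of tested genes as deposited. After subtraction of the array median Zeb1 still did, as did 12.4% of tested genes. The difference was -2.11 (SE 0.23), or 4.32-fold lower, in non-SP cells and -2.07 (SE 0.23), or 4.21-fold lower, in SP cells, with limma adjusted p-values of 3.85e-06 and 4.23e-06. Relative to the median gene it was -1.53 and -1.48, or 2.89-fold and 2.78-fold, and 2.14% and 2.57% of tested genes had a lower difference. With centred arrays it was -1.57 and -1.58, with adjusted p-values of 2.02e-06 and 1.69e-06, and without both doubtful pairs it was -2.11 and -2.07 as deposited, where 50.0% and 52.4% of all genes were called. All 4 Zeb1 probe sets read lower in A2C12 as deposited. The 3 weaker ones gave -0.85, -1.26 and -0.64 in non-SP cells, which is -0.27, -0.68 and -0.06 relative to the median gene, so the difference of the main probe set was not matched in size by the others. Between the other lines Zeb1 differed by -0.28 (cRAF_cMYC minus betaD5, 95% interval -0.85 to 0.29, adjusted p = 0.64).

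Zeb2, the relative of Zeb1, varied by pair and not by labelled line on its main probe set. In A2C12 it read 7.33, 7.50 and 7.48 in non-SP cells and 7.74, 7.57 and 7.30 in SP cells. In betaD5 it read 8.04, 7.23 and 6.76 and then 8.14, 7.23 and 6.52. In cRAF_cMYC it read 7.24, 8.57 and 5.95 and then 7.10, 8.74 and 6.19. The highest pairs were betaD5 1 and cRAF_cMYC 2 and the lowest cRAF_cMYC 3 and betaD5 3, so each of these labels held both a high and a low pair, and the A2C12 arrays lay between them. A2C12 minus the others was 0.14 (SE 0.53) and 0.21 (SE 0.53), with limma adjusted p-values of 0.84 and 0.74. The other Zeb2 probe sets read lower in A2C12 as deposited, by -0.22, -0.73, -0.60 and -0.69 in non-SP cells. Relative to the median gene these were 0.36, -0.15, -0.02 and -0.11. In SP cells they were -0.87, -0.81, -0.48 and -0.69 as deposited. Probe set 1422748_at did not have the same high and low pairs, with non-SP values of 6.99 in cRAF_cMYC 2 and 6.64 in cRAF_cMYC 3. Leaving out the pairs betaD5 1 and cRAF_cMYC 3 turned cRAF_cMYC minus betaD5 in non-SP cells from -0.09 (adjusted p = 0.95) to 0.91 (adjusted p = 0.20), and to 1.32 (adjusted p = 0.022) with centred arrays, where 17.4% of genes were called.

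Snai2 encodes Slug, another repressor of Cdh1, and followed the pairs in the same way. In A2C12 it read 10.75, 10.85 and 10.80 in non-SP cells and 11.22, 11.09 and 10.79 in SP cells. The betaD5 arrays read 11.81, 10.55 and 10.79 and then 11.64, 10.72 and 10.82, and those of cRAF_cMYC 10.81, 11.90 and 10.37 and then 10.83, 11.87 and 10.37. The pairs betaD5 1 and cRAF_cMYC 2 were again the highest and cRAF_cMYC 3 the lowest. A2C12 minus the others was -0.24 and -0.01, with limma adjusted p-values of 0.60 and 0.98, and 0.30 and 0.48 with centred arrays (adjusted p = 0.56 and 0.33). Without both pairs cRAF_cMYC minus betaD5 was 0.68 (adjusted p = 0.21) in place of -0.02, and 1.09 with centred arrays (adjusted p = 0.0038).

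Snai1 encodes Snail. It read 7.77 to 8.28 in A2C12, 8.31 to 9.19 in betaD5 and 7.32 to 9.15 in cRAF_cMYC, where the arrays of pair 1 were the lowest of all 18. A2C12 minus the others was -0.41 (limma adjusted p = 0.31) in non-SP cells and -0.59 (adjusted p = 0.14) in SP cells. Leaving out the pair cRAF_cMYC 1 alone made it -0.65 and -0.80. That passed limma's test (adjusted p = 0.015 and 0.0047), where 66.3% and 66.8% of all genes were called. With all arrays centred it was 0.13 and -0.10.

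Twist1 encodes a helix-loop-helix factor of mesoderm. Its A2C12 arrays read 7.95, 8.09 and 8.12 in non-SP cells and 8.08, 7.72 and 7.85 in SP cells. In betaD5 the arrays read 8.77, 9.31 and 9.22 and then 8.78, 9.19 and 9.23, and in cRAF_cMYC 8.33, 8.99 and 9.17 and then 8.44, 8.75 and 9.24. All A2C12 arrays lay below all others as deposited, as they did for 28.1% of tested genes, while the ranges overlapped after subtraction of the array median. The difference was -0.91 (SE 0.23) in non-SP cells and -1.06 (SE 0.23) in SP cells, with limma adjusted p-values of 0.0036 and 0.0011. With centred arrays it was -0.37 (adjusted p = 0.13) and -0.57 (adjusted p = 0.023), so only the SP difference passed under both scalings.

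**Figure D2:**
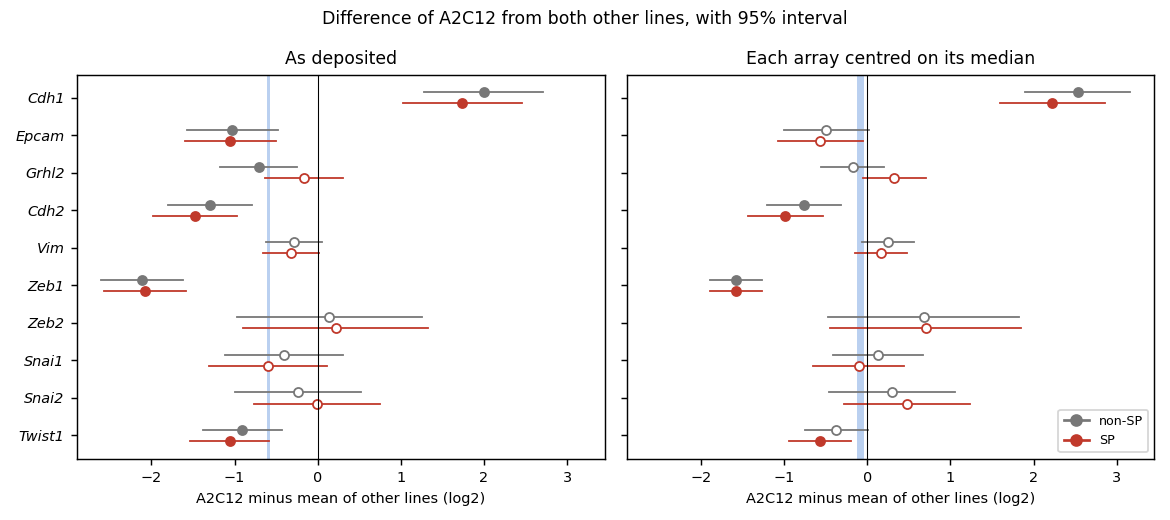
Difference of A2C12 from the mean of betaD5 and cRAF_cMYC (log2, horizontal axis) for each gene in non-SP arrays (grey) and SP arrays (red), with 95% intervals and filled circles for an adjusted p under 0.05, as deposited on the left and with centred arrays on the right. Cdh1 comes from the fit without a filter, and the blue band spans the medians of all tested genes. Cdh1 lies to the right and Zeb1 and Cdh2 to the left of 0 in both panels, with filled circles in both fractions.

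Counted together, 5 of the 9 tested members (Epcam, Grhl2, Cdh2, Zeb1 and Twist1) were called lower in A2C12 non-SP cells as deposited and 0 higher. Of all 10916 tested genes 52.2% were called and 49.2% were called lower, with a median difference of -0.58. In SP cells 4 of 9 were called lower, the same genes without Grhl2, where 53.5% of genes were called and 50.7% were called lower. With centred arrays the calls were Zeb1 and Cdh2 in non-SP cells and these and Twist1 in SP cells, where 28.4% and 31.3% of all genes were called. The share of members called thus lay near that of all genes. Line by line in non-SP cells, betaD5 was above A2C12 in the same 5 genes as deposited (55.2% of genes called) and cRAF_cMYC in Epcam, Cdh2, Zeb1 and Twist1 (28.5% of genes called). With centred arrays Zeb1 alone was still called in cRAF_cMYC, and Cdh2 missed the threshold at 0.72 (adjusted p = 0.051) in place of 1.10, as it did after quantile normalization at 0.63 (adjusted p = 0.077). In betaD5 both Zeb1 and Cdh2 were still called when centred, and Epcam, Grhl2 and Twist1 were not. As deposited, the Epcam and Twist1 calls for cRAF_cMYC were lost without the pair cRAF_cMYC 3, alone or with betaD5 1 (0.65 and 0.60, adjusted p = 0.096 and 0.098 without both). They were also lost without the non-SP array cRAF_cMYC 2 or any 1 of the A2C12 non-SP arrays, with adjusted p-values of 0.073 to 0.14 for Epcam and 0.078 to 0.12 for Twist1. No member was called between cRAF_cMYC and betaD5, and limma called 0% of all genes there, with 689 at an unadjusted p under 0.05. These 2 comparisons with A2C12 share its arrays. In bulk RNA, fewer cells of one kind and less RNA per cell cannot be told apart.

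Zeb1 and Cdh2 share a chromosome, 18 in the RefSeq table of GRCm38.p6, which gave a chromosome for 10896 of the tested genes. This was looked at after the values were seen and has no test. The 277 tested genes of chromosome 18 had a median difference of -1.42 in non-SP cells and -1.41 in SP cells, the lowest of the 20 chromosomes and -0.84 and -0.81 relative to the median gene, and 86.6% and 85.9% of them were called lower in A2C12. Cdh2 lay at the middle of these genes, 0.12 above their median in non-SP cells and -0.06 from it in SP cells. Zeb1 lay -0.70 and -0.66 from it, with 9.39% and 13.0% of the chromosome's genes lower still. The other 7 tested members lie on chromosomes 2, 12, 15, 16 and 17, with medians between -0.72 and -0.52. Cdh1 lies on chromosome 8, with a median of -0.94 and -0.93, so it went against its chromosome as well as against the array medians. What part the chromosome has in the Zeb1 and Cdh2 differences was not tested.

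The fractions were compared next. SP minus non-SP averaged over the 3 lines lay between -0.07 (Twist1 and Grhl2) and 0.13 (Snai1) in the 9 tested genes and was 0.12 in Cdh1. Limma called 0 members and 0% of the 10916 genes in this mean and in each line, with 36 genes at an unadjusted p under 0.05 for the mean and 1, 14 and 18 in A2C12, betaD5 and cRAF_cMYC. Without a filter, as Cdh1 was read, 0% of 18193 genes were called. The 95% intervals come from the fit without pairing and so include the spread between pairs. For the mean of the lines they ran from -0.70 to 0.79 for Zeb2, the widest, and from -0.16 to 0.29 for Vim, the narrowest. For Zeb1 the interval was -0.35 to 0.31, for Cdh2 -0.28 to 0.39, for Epcam -0.40 to 0.33 and for Cdh1 -0.36 to 0.59. In a fit with the pair as a block, which compares the fractions within pairs, no member and 0% of all genes were called either, with 1437 genes at an unadjusted p under 0.05 for the mean of the lines. The smallest adjusted p of a member for that mean was 0.43 (Vim).

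**Figure D3:**
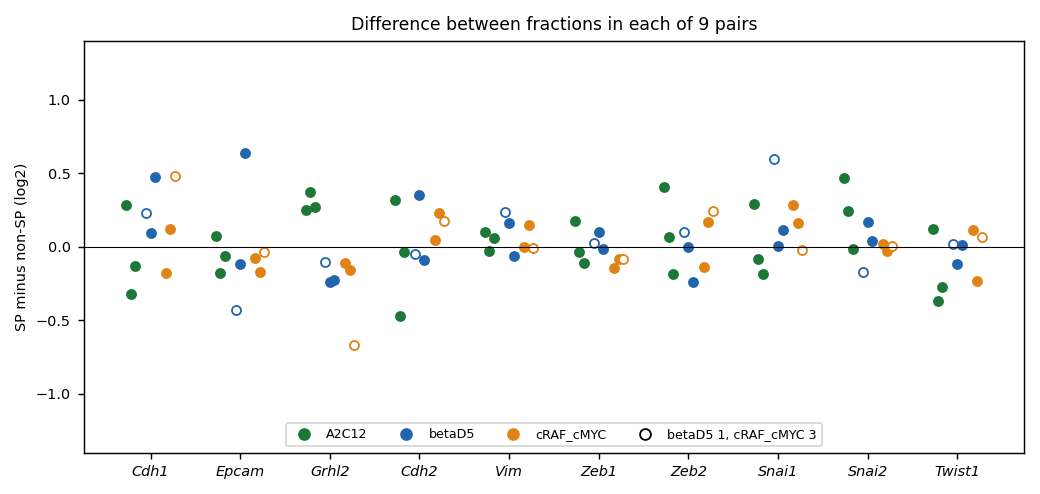
SP minus non-SP (log2, vertical axis) in each of 9 pairs for the 10 genes, coloured by line, with open circles for the pairs betaD5 1 and cRAF_cMYC 3. Points lie on both sides of 0 for every gene, and in Grhl2 the 3 A2C12 pairs lie above 0 and the 6 others below.

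By pairs, Cdh1 was higher in SP cells in 6 of 9, between -0.32 and 0.48, and Epcam in 2 of 9, between -0.43 and 0.63. Cdh2 was higher in 5 of 9, between -0.47 and 0.35, and Vim in 5 of 9, between -0.06 and 0.24. Neither the epithelial nor the mesenchymal pair of genes moved one way over the pairs. Among the factors, Zeb1 was higher in SP cells in 3 of 9 pairs, between -0.14 and 0.17, Snai1 in 6, between -0.19 and 0.60, Snai2 in 6, between -0.17 and 0.47, and Twist1 in 5, between -0.37 and 0.12. On its main probe set, Zeb1 thus differed by at most 0.17 between the fractions of a pair. Its 3 weaker probe sets ran from -0.15 to 0.21, -0.70 to 0.33 and -0.38 to 0.14. On their other probe sets, Epcam was higher in SP cells in 5 of 9 pairs, Cdh2 in 7, Snai2 in 8 and Vim in 6 on each.

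Grhl2 was the one member whose direction followed the line in every pair. SP minus non-SP was 0.25, 0.37 and 0.27 in the A2C12 pairs, -0.11, -0.24 and -0.22 in those of betaD5, and -0.11, -0.16 and -0.67 in those of cRAF_cMYC. The mean was 0.30 in A2C12, -0.19 in betaD5 and -0.31 in cRAF_cMYC. In the fit without the pair as a block, each had a limma adjusted p of 1.0. The SE of that fit, 0.25 for A2C12, includes the spread between pairs. The other Grhl2 probe sets did not share the A2C12 direction in every pair, with A2C12 means of 0.09, 0.12 and -0.05.

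Probe sets of Zeb2 gave different answers about the fractions, a pattern picked out after the values were seen. The probe set with the highest mean gave SP minus non-SP of 0.09 in A2C12, -0.05 in betaD5 and 0.09 in cRAF_cMYC. Probe set 1434298_at gave 0.38, -0.16 and -0.15 in the A2C12 pairs, 0.52, 0.75 and 0.88 in those of betaD5 and 0.29, 0.40 and 1.22 in those of cRAF_cMYC. It was higher in SP cells in all 6 pairs of betaD5 and cRAF_cMYC and in 7 of 9 pairs in all, with a mean over lines of 0.46. Over 18315 probe sets tested with the pair as a block, this mean had an unadjusted p of 0.000926 and a limma adjusted p of 0.17, and without the block the adjusted p was 1.0. The other 3 Zeb2 probe sets gave means of 0.13, -0.07 and 0.04. The 3' to 5' signal ratio of Gapdh, a measure of RNA length, was raised in the SP arrays of betaD5 2 and 3, at 0.76 and 0.97 on the log2 scale against at most 0.56 on any other array. It was 0.07 in the SP array of cRAF_cMYC 3, where the Zeb2 difference was largest, and 0.13 in its non-SP array. What part RNA length has in the difference was not tested beyond these values.

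**Figure D4:**
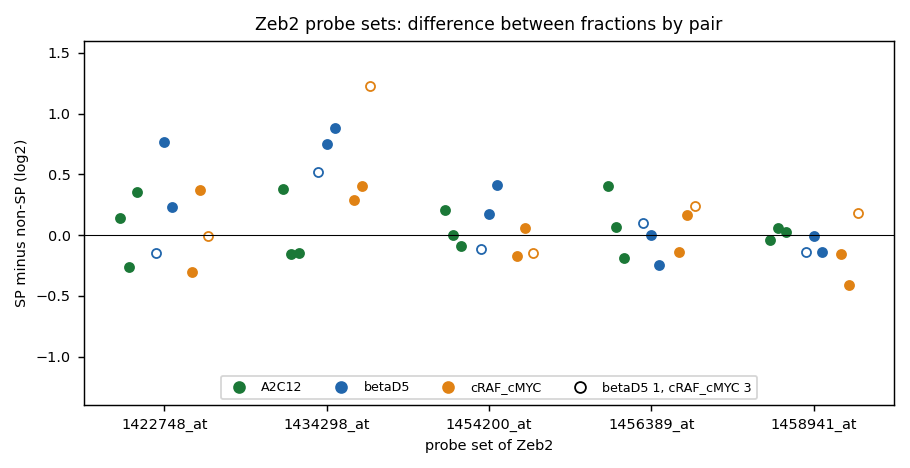
SP minus non-SP (log2, vertical axis) in each of 9 pairs for the 5 Zeb2 probe sets, coloured by line, with open circles for the pairs betaD5 1 and cRAF_cMYC 3. Probe set 1434298_at lies above 0 in all betaD5 and cRAF_cMYC pairs, up to 1.22, and the probe set used for the gene, 1456389_at, lies between -0.24 and 0.41.

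The wider pathway was followed through lists of known genes. Of 20 further transition regulators with a probe set, 13 were tested. In A2C12 non-SP cells 6 were lower and 1 higher as deposited, with a median of -0.20 against -0.58 for all genes. Of all tested genes 49.2% were lower and 2.96% higher there, so the count of 6 lay near the background. Twist2, a relative of Twist1, was at -1.86, Tcf4, an E protein that pairs with TWIST factors, at -2.04 and Snai3 at -1.21, with limma adjusted p-values of 8.3e-05, 0.00039 and 0.00013. Prrx2, a homeobox factor of mesenchyme, was higher by 1.45 (adjusted p = 0.0015). All 4 held with centred arrays, where 6 of the 13 were called higher and 3 lower, against 1307 and 1788 (16.4%) of the 10916 genes. In SP cells 5 were lower and 1 higher as deposited, against 50.7% and 2.77% of all genes, and 3 lower and 4 higher when centred, against 21.2% and 10.1%.

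Epithelial junction and keratin genes were mostly near or below the filter. Of 27 with a probe set, 10 were tested, and the only one called in either fraction as deposited was Epcam, with list medians of -0.36 and -0.26. Of all tested genes 52.2% and 53.5% were called in non-SP and SP cells. With centred arrays 1 was called higher in each fraction, Krt8 at 0.66 in non-SP cells (limma adjusted p = 0.048) and Lsr, a tight junction receptor, at 0.34 in SP cells (adjusted p = 0.035). That is near the background, as 1307 and 1102 of all 10916 genes were called higher there in non-SP and SP cells. Of the 17 genes of this list below the filter, Cdh1 and Mal2, a membrane sorting protein of epithelia, had all A2C12 arrays above the rest as deposited. Of all genes below the filter 1.20% did. Mal2 read 7.32 to 8.25 in A2C12 and at most 3.49 in the other lines.

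Mesenchymal genes divided. Of 15 tested, 6 were lower in A2C12 non-SP cells and 7 in SP cells as deposited, with 0 higher and medians of -0.59 and -0.68, close to those of all genes. The counts also lay near the 49.2% and 50.7% of all genes called lower. Mmp2, a collagenase, was at -3.11 (limma adjusted p = 2e-07), Pdgfrb, a growth factor receptor, at -1.42 (adjusted p = 0.0019), and Cald1, an actin binding protein, at -0.59 (adjusted p = 0.0025), with Cdh2 as given above. Of these, Mmp2, Pdgfrb and Cdh2 were also called with centred arrays, where 4 were lower and 1, the fibronectin gene Fn1, higher in each fraction. That scaling called 1788 of all 10916 genes lower and 1307 higher in non-SP cells, and 2317 and 1102 in SP cells. Fn1 was at 0.68 and 0.69 with centred arrays. As deposited it read 13.71 to 13.94 in A2C12, 13.64 to 13.89 in betaD5 and 13.42 to 13.87 in cRAF_cMYC. These ranges overlapped, so the higher call of Fn1 depended on the scaling.

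In the TGF-beta pathway, a main inducer of the transition, 14 genes were tested. In each fraction 7 were lower and 1 higher as deposited, with medians of -0.66 and -0.94. The share lower was close to the 49.2% and 50.7% of all genes. The signal carriers Smad4 and Smad2 were at -1.46 and -1.61 in non-SP cells (limma adjusted p = 2e-05 and 0.00012), the inhibitor Skil at -1.41 (adjusted p = 0.00069), and the receptor Tgfbr1 higher by 1.4 (adjusted p = 0.0020). With centred arrays these 4 were still called in non-SP cells, among 3 lower and 3 higher, and 5 were lower and 1 higher in SP cells. Among all 10916 genes, 1788 were lower and 1307 higher there in non-SP cells, and 2317 and 1102 in SP cells. Chromosome 18, which holds Zeb1 and Cdh2, also holds 8 other tested genes of the lists. Tcf4, Pdgfrb, Smad2, Smad4, Smad7 and Ctnna1 were called lower in non-SP cells as deposited, while Lox was at -0.55 (adjusted p = 0.20) and Bambi at -0.02 (adjusted p = 0.98). Of 9 tested partners of the cadherins at the junction, 5 were lower in non-SP cells and 4 in SP cells, with medians of -0.79 and -0.88, which is again near the 49.2% and 50.7% of all genes. The nectin gene Nectin3 was at -2.95 (adjusted p = 3.4e-07), Afdn, which anchors nectins to actin, at -1.60 (adjusted p = 1.9e-05), Ctnna1, the alpha-catenin, at -0.86 (adjusted p = 0.0018) and Nectin2 at -1.02 (adjusted p = 0.0086). Only Nectin3 and Afdn held with centred arrays in both fractions.

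Markers of other cell types were compared between the lines as well. All 4 mesothelium markers were lower in A2C12 in both fractions (summed log2 signal 7.53 to 8.15 in A2C12 against 12.58 to 14.69 in the other lines), and Upk3b read at most 4.61 in A2C12 and at least 11.45 elsewhere. Of 6 tested fibroblast markers 3 were lower, Col1a2, Dcn and Pdgfrb. That share lay near the 49.2% and 50.7% of all genes called lower in non-SP and SP cells. The summed fibroblast signal was 13.26 to 13.90 against 14.96 to 15.88. What part the cells that carry these markers have in the Zeb1, Cdh2 and Cdh1 differences was not tested. The summed signal of the 5 epithelium markers overlapped, 11.71 to 12.65 in A2C12 and 10.80 to 12.44 elsewhere, with Epcam the only one called, lower, among the 4 that passed the filter and Cdh1 called higher in the fit without it. The summed signals of leukocyte markers overlapped as well, 10.22 to 10.68 against 8.89 to 11.37, with 0 of 4 tested called. Kdr, the only endothelium marker tested, was called lower, as were Tubb4b among the ciliated cell markers and Abca3 and Slc34a2 in non-SP cells and Abca3 in SP cells among the alveolar ones, and none of these was called with centred arrays. Between the fractions limma called 0 genes of every list, with median differences over the lines of 0.02 for the regulators, -0.06 for the epithelial, 0.01 for the mesenchymal, 0.08 for the TGF-beta and 0.00 for the cadherin partner genes, against 0.01 for all genes.

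For the members that spanned more than 2 log2 units over the arrays, the genes with the most similar profile were found by the root mean square (RMS) difference over 18 arrays after removal of each gene's mean. Zeb1 was followed most closely by Snx24, Mex3c and Slc25a46, at 0.14, 0.15 and 0.15. Cdh2 was nearest to Got2, Afg3l1 and Poli at 0.15, 0.16 and 0.16, and Epcam to Nhsl1, Mospd2 and E130308A19Rik at 0.16, 0.17 and 0.18. All 3 genes nearest to Zeb1, and Poli near Cdh2, are chromosome 18 genes. These profiles share the step between A2C12 and the other lines and the array medians. No gene came as close to Zeb2, whose nearest were Alkbh2, Ctbs and Fam234b at 0.27, 0.27 and 0.28, or to Cdh1, with 4930486L24Rik, Tspan13 and Fxyd3 at 0.38, 0.40 and 0.40. Tspan13 averaged 8.52 in A2C12 and 6.46 in the other arrays.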

How the data were processed

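RNA of 18 samples, 200 ng each, was labelled and hybridised to Affymetrix 3' expression arrays, per the labels. The deposited values are log2 signals for 45101 probe sets, made by the authors with Affymetrix Expression Console, per the submitters' processing notes. Its version, summary method and normalization are not given in the sources used here. The values lay between 2.28 and 15.28, and arrays give no counts, so the number of arrays limits the precision. Of the probe sets, 64 controls were left out, and 34945 carried 1 gene symbol. Each of 18193 genes was read from its probe set with the highest mean, and the lowest 40% of genes by mean were left out, leaving 10916.

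Group means of the 6 line and fraction groups were fitted to all genes with limma 3.58.1 in R 4.3.3, leaving 12 residual degrees of freedom, with empirical Bayes moderation that allowed a trend. Tests were two-sided, and calls needed a p, adjusted over all genes tested by the method of Benjamini and Hochberg, under 0.05. The fit was tested on simulated data. Cdh1 was read from the same fit without the filter, a choice made after its level was seen. Same-numbered SP and non-SP arrays deviated together from their group means (r of 0.43 to 0.95 over genes in all 9 pairs), so the numbers were treated as pairing. A paired fit used line and number as a block. The line comparisons come from the fit without pairing, which treats all arrays as independent, so their p-values do not allow for the pairs. A line difference seen in both fractions is therefore not a separate replication. Chromosomes were looked up in the RefSeq gene table of GRCm38.p6 by symbol, after seeing the data.

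All 10 members are named, and of each list (transition regulators, epithelial junctions and keratins, mesenchymal genes, TGF-beta signal, cadherin partners and markers of 8 cell types) up to 4 genes with the smallest p past the threshold. Profiles were compared for members spanning over 2 log2 units, with 3 genes each. Members, lists and alternatives were chosen with earlier results of these data known. Alternatives were quantile normalization, centring, no filter, the mean of all probe sets, every probe set, no trend, the block, and leaving out arrays or pairs.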

Additional observations from a re-analysis of the deposited data

Results flagged for a closer look

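Grhl2 had opposite directions between the fractions in different lines, in every pair. SP minus non-SP was positive in all 3 A2C12 pairs and negative in all 3 pairs of betaD5 and all 3 of cRAF_cMYC. The change in betaD5 minus that in A2C12 was -0.49 (log2), and that in cRAF_cMYC minus that in A2C12 was -0.61. Neither difference passed limma's interaction test (adjusted p = 1.0 for both). With the pair as a block the unadjusted p-values of the same fit were 0.011 and 0.0027 and the adjusted ones 0.91 and 0.97.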

How the results depend on the processing

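The counts of genes called in non-SP cells as deposited were 5697 for A2C12 against both lines, 6021 for betaD5 minus A2C12, 3115 for cRAF_cMYC minus A2C12 and 0 for cRAF_cMYC minus betaD5, and 5839 in SP cells for A2C12 against both. Quantile normalization gave 3544, 3147 for betaD5, and 3689 in SP cells. Centring gave 3095, 2596, 2073 and 3419, and turned the split in non-SP cells from 323 higher and 5374 lower to 1307 and 1788, and in SP cells from 302 and 5537 to 1102 and 2317. Without a filter the first 2 counts were 9376 and 10568. Leaving out single arrays gave 3848 to 6842, 4517 to 6482, 1562 to 4986 and 0 to 0, and 4140 to 6774 in SP cells. Leaving out pair A2C12 3 gave 3537, 1408 for cRAF_cMYC minus A2C12, and 3863 in SP cells. That cRAF_cMYC count was 1940 and 1748 without A2C12 1 and 2, and 5796, 1836 and 2052 without cRAF_cMYC 1, 2 and 3, the last of which gave 1 call between cRAF_cMYC and betaD5. Without both doubtful pairs there were 1222 calls between those lines, and with centring too 1895, with 3987 for betaD5 minus A2C12. That setting turned Snai2 to 0.48 in SP cells for A2C12 against both (adjusted p = 0.035), to -0.89 for betaD5 minus A2C12 (0.0033) and to 1.09 for cRAF_cMYC minus betaD5 (0.0038), and Zeb2 to 1.32 for the latter (0.022). Between the fractions the replicate block called 0 genes in every line and changed no call of a member, with Zeb1 at -0.02 (adjusted p = 0.90) for the mean of the lines. Without both doubtful pairs the block gave 15 calls in betaD5, and with the Gapdh and Actb ratios as a covariate 34 in betaD5 and 3 in the mean. The causes of these changes were not tested. The settings that leave out a single pair, and centring with both pairs out, were chosen after seeing the data. Against both other lines, Zeb1 and Cdh2 remained called lower, and Cdh1 higher, in A2C12 in both fractions under every setting that gave these comparisons.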
